A study of Mus musculus with 2 samples.

Results

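The 39 mouse Hox genes were followed through cultures of D3 mouse embryonic stem cells that had been differentiated toward cardiomyocytes for 6 days. Members were chosen by symbol, as every gene named Hox with a cluster letter from a to d and a number, and they were 39 of the 32285 features in the count matrices. They comprise 11 Hoxa, 10 Hoxb, 9 Hoxc and 9 Hoxd genes. The cells were profiled in droplets by single-cell RNA sequencing, as 1 library of wild-type cells, called control here, and 1 library of Zbtb16 knockout cells of the same line, both under the same differentiation treatment and collected at the same time. Zbtb16 encodes a zinc finger transcription factor, also called PLZF, and the stated aim was to find which subpopulation it regulates at the cardiovascular progenitor stage. The sources used here do not say how the knockout was made or whether it is 1 clone. Each group is 1 library, so differences lack a replicate check, no test was made, every comparison is between these libraries, and genotype and library cannot be told apart. Intervals are exact 95% intervals (Poisson for levels, Clopper-Pearson for shares), and they cover counting error only.

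Hox genes encode homeodomain transcription factors that give cells their position along the head-to-tail axis. Genes at the 3′ end of each cluster, with low paralogue numbers, are switched on early and reach far forward, and genes toward the 5′ end are switched on later and in more posterior tissue. In the early heart field Hoxb1 marks posterior progenitors that contribute to the outflow tract and inflow pole, while the most 5′ genes mark tail, hindlimb and genital mesoderm. Pbx and Meis proteins of the TALE family bind DNA together with Hox proteins, and Cdx factors switch on the middle and posterior part of the clusters. Mice that lack Zbtb16 are known for altered Hox expression and for patterning defects of the limbs and axial skeleton, and the protein is known to recruit Polycomb complexes to Hox genes.

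The windows just before the start of Hoxa2, Hoxb1, Hoxb8 and Hoxd9 are shown because these genes lie on either side of the main difference between the libraries: Hoxa2 and Hoxb1 were lower in the knockout library, and Hoxb8 and Hoxd9 were higher. Each is the 250 bases before the annotated start, 5′ to 3′ on the gene's strand, from RefSeq on build GRCm38.p6, whereas the submitters' processing notes name GRCm39. Capitals mark TGATNNAT, a composite site known to bind Pbx with an anterior Hox protein, and TTTAT, the core that Cdx and posterior Hox proteins prefer, each searched on both strands. The windows are Hoxa2 at chr6:52164832-52165081 on the minus strand, Hoxb1 at chr11:96365508-96365757 on the plus strand, Hoxb8 at chr11:96281655-96281904 on the plus strand and Hoxd9 at chr2:74697513-74697762 on the plus strand.
Hoxa2: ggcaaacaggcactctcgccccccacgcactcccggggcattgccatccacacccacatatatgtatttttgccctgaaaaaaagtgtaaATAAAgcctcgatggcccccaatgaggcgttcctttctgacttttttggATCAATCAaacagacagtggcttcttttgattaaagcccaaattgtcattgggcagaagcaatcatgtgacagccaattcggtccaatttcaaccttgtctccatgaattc
Hoxb1: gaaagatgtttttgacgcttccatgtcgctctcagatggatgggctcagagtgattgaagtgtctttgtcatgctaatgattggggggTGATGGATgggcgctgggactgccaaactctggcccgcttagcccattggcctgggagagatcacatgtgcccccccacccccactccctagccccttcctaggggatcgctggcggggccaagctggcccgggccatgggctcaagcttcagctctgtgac
Hoxb8: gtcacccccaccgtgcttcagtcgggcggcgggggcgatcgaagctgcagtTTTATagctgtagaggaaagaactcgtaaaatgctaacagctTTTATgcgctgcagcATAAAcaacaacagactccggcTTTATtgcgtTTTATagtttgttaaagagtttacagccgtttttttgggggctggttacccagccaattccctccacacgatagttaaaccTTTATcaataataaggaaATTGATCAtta
Hoxd9: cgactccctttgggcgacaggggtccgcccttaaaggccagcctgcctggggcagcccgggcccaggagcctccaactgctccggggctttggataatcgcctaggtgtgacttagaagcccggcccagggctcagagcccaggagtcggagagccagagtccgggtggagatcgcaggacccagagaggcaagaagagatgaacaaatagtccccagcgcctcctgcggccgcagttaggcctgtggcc
RefSeq windows were matched for 22 of the 39 members, in 24 windows. The window of Hoxb1 held 1 TGATNNAT match, which began 162 bases before the start, and no TTTAT. The Hoxa2 window held 1 of each. In the Hoxb8 window there were 6 TTTAT matches, the nearest 29 bases before the start, and 1 TGATNNAT match. The Hoxd9 window held neither. Of the 24 Hox windows, 4 held TGATNNAT and 9 held TTTAT, against 7.68% and 37.3% of all 32851 RefSeq windows of that length. The Hox windows also held more CG dinucleotides, with a median of 12.5 and a range of 2 to 35, against a median of 6 in all windows. A match is a description of the letters in the window, not a binding site.

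Barcodes with at least 15000 UMIs and at most 10% mitochondrial UMIs were kept, which left 6354 control and 9449 knockout cells. Each captured RNA molecule counts once, as a UMI (unique molecular identifier). Levels are in CPM, the UMIs of a gene per 1000000 UMIs of the cells summed. The kept cells held 292541318 control and 343037265 knockout UMIs, with medians of 37324 and 30513 per cell, and 202981 and 175721 of these were Hox UMIs. Both libraries shared 16 of the kept barcodes. Zbtb16 itself stood at 22.2 CPM in the control library and 0.994 CPM in the knockout library. The sources used here do not say which part of the gene was deleted, so its level checks the label only if the deletion lowers the transcript.

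Cell states were set by gates, each a summed level of a few marker genes per 10000 UMIs, and cells that passed 2 or more gates (1304 control, 892 knockout) were left out of the states. Gates on Actc1, Tnnt2 and Myl7, on endothelial, on endoderm, on pluripotency and on embryonic globin genes were borne out by further markers. Of the further markers 7 of 9, 8 of 8, 7 of 8, 5 of 5 and 6 of 6 stood at least 2-fold above the other cells in these states, which are called cardiomyocyte-like, endothelial-like, endoderm-like, pluripotent-like and haematopoietic-like. The other gates were not borne out in this way, and they are named by their genes only. Of the further markers 0 of 7 stood 2-fold higher in the Isl1/Sfrp5/Nkx2-5 gate, 1 of 5 and 0 of 5 in the Upk3b/Wt1 gate of the control and knockout libraries, 2 of 7 and 1 of 7 in the Postn/collagen gate, and 3 of 6 in the Cdx/Pitx1 gate of either library. Gates for neural and paraxial genes alone took 1 cell or none in each library. The libraries differed in makeup: the cardiomyocyte-like state held 1023 control and 38 knockout cells, the Postn/collagen gate 840 and 3755, and the Cdx/Pitx1 gate 16 and 427. A gate is a cut through a range, and 440 control cells lay within 1.25-fold of the cardiomyocyte cut, 522 control and 1335 knockout cells near the Postn/collagen cut, and 35 and 386 near the Cdx/Pitx1 cut.

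**Figure D1:**
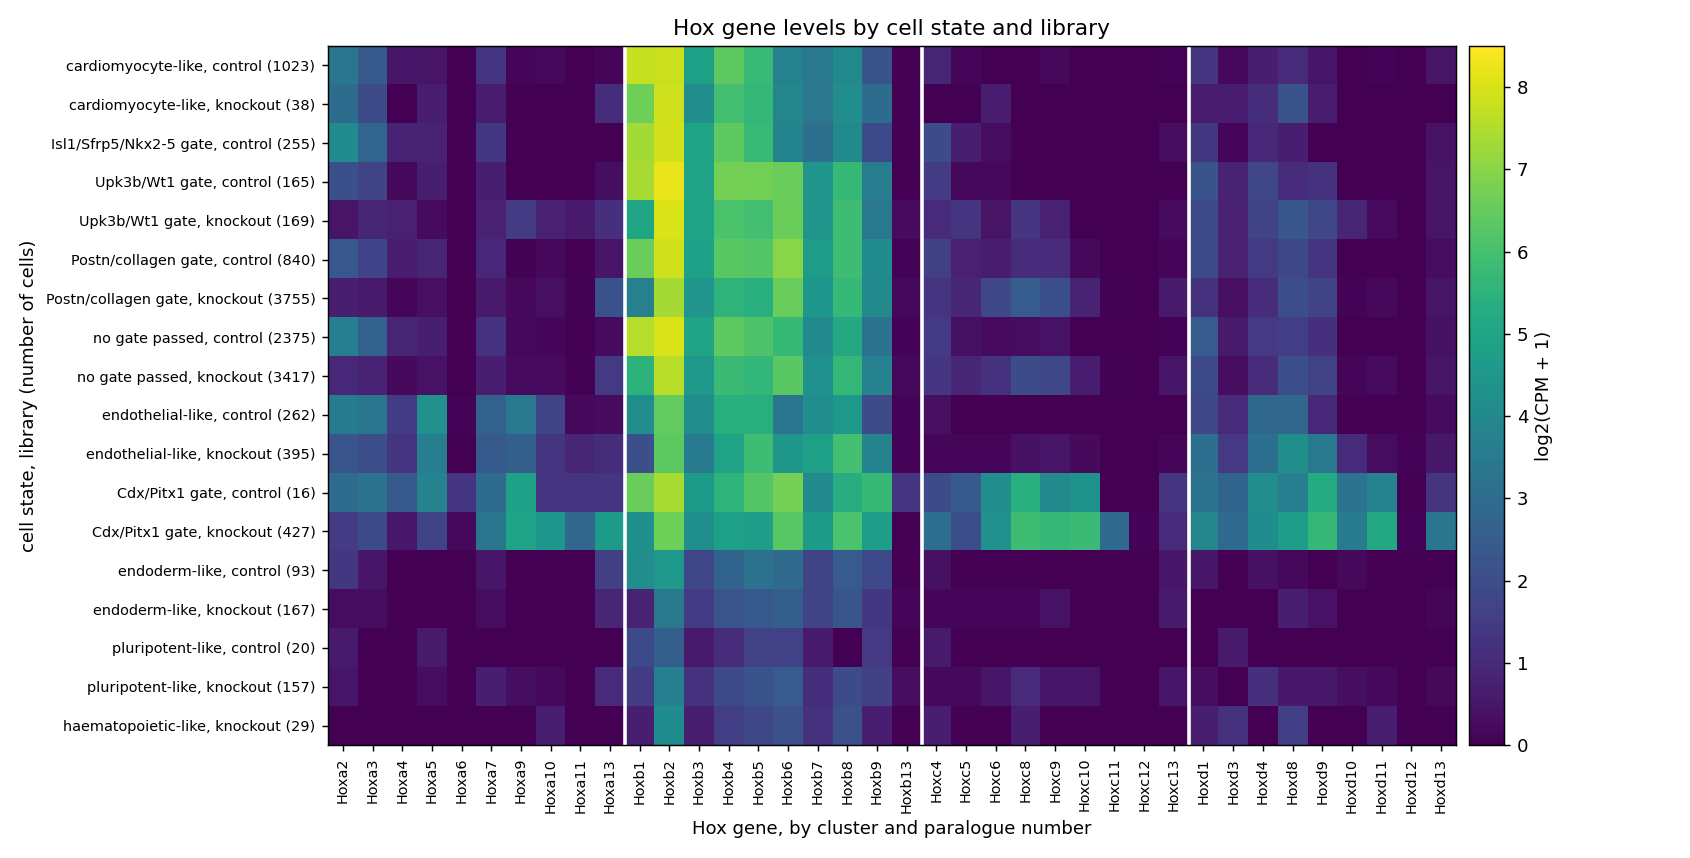
Level of 38 of the 39 Hox genes, as the colour of log2(CPM + 1), in each cell state of each library, with the number of cells in brackets. Each column is read from top to bottom, since genes differ in length and capture. Hoxb1 to Hoxb9 are seen in most mesodermal states, Hoxb1 is lower in the knockout rows, and Hoxa9 to Hoxa13, Hoxc8 to Hoxc10 and Hoxd8 to Hoxd11 stand out in the Cdx/Pitx1 gate.

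Over all kept cells the knockout library had a lower sum of the 3′ Hox genes and a higher sum of the 5′ genes. Summed over paralogues 1 to 4 the level was 519.6 CPM (control) and 262.1 CPM (knockout) (log2 ratio -0.98, ratios being of CPM plus 1). Paralogues 5 to 8 summed to 162.9 and 205.9 CPM (0.34), and paralogues 9 to 13 to 11.3 and 44.3 CPM (1.88). As shares of all Hox UMIs, paralogues 1 to 4 held 74.9% in the control and 51.2% in the knockout, paralogues 5 to 8 held 23.5% and 40.2%, and paralogues 9 to 13 held 1.63% and 8.65%. The total over all Hox genes was 693.9 CPM (control) and 512.2 CPM (knockout), so the 5′ genes were a larger part of a smaller sum. In the sum of paralogues 1 to 4, Hoxb1 alone stood at 157 and 23.1 CPM. The Hoxc and Hoxd genes in it, all under 5 CPM, were not lower. Hoxc4 stood at 1.60 and 1.78 CPM and Hoxd1 at 2.98 and 3.22 CPM. Hoxd3 stood at 0.458 and 0.875 CPM and Hoxd4 at 1.61 and 2.74 CPM. They were chosen after their values were seen.

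A gene was called higher or lower at 1.5-fold or more, if it reached 5 CPM in either library. Of the 39 members 15 reached that level, and 7 were higher in the knockout and 4 lower. Among all 10289 genes at that level 12.7% were higher and 6.75% lower, and the median log2 ratio was 0.02 against 0.36 over the 15 Hox genes. The lower genes were Hoxa2, Hoxb1, Hoxb4 and Hoxb5, and the higher ones Hoxb6, Hoxb8, Hoxb9, Hoxc8, Hoxc9, Hoxd8 and Hoxd9. Of these calls 4 higher (the Hoxc and Hoxd genes) and 1 lower (Hoxa2) were of genes that reached 5 CPM in 1 library only, so for them the minimum itself favoured a call in that direction. Of the 16 genes of paralogues 9 to 13 only 3 reached the minimum. The 9 Hoxb genes reached it in both libraries.

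Hoxb1, a marker of posterior heart progenitors, had the largest difference among the lower genes. It stood at 157 CPM (155 to 158) in the control library and 23.1 CPM (22.6 to 23.6) in the knockout, a log2 ratio of -2.71. Its intervals are far apart. Hoxa2, a hindbrain and pharyngeal arch gene, stood at 8.48 CPM (control) and 1.01 CPM (knockout) (-2.24). Hoxb4 stood at 79.6 and 44.2 CPM (-0.83), and Hoxb5 at 62.0 and 40.5 CPM (-0.60), the last just past 1.5-fold and short of it at 5% mitochondrial UMIs (-0.53), with TMM scaling (-0.58) and with equal weight per cell (-0.56). Hoxb2 and Hoxb3, between Hoxb1 and Hoxb4 in the cluster, leaned the same way without passing 1.5-fold: Hoxb2 stood at 225 and 156 CPM, and Hoxb3 at 27.0 and 19.5 CPM.

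Along the Hoxb cluster the ratios over all cells were below 0 up to Hoxb5 and above 0 from Hoxb6. Hoxb6 stood at 48.9 CPM (control) and 77.0 CPM (knockout) (0.65), Hoxb8 at 31.1 and 49.3 CPM (0.64), and Hoxb9 at 7.93 and 14.1 CPM (0.75). With at least 30000 UMIs per cell Hoxb6 (0.48) and Hoxb8 (0.53) fell short of 1.5-fold. Hoxb7, between them, stood at 14.8 and 19.4 CPM (0.36), under 1.5-fold. In the other clusters the higher genes came from a low control level. Hoxc8 stood at 0.468 and 7.39 CPM, Hoxc9 at 0.455 and 5.72 CPM, Hoxd8 at 1.99 and 5.75 CPM and Hoxd9 at 1.13 and 6.51 CPM. The remaining named genes did not reach 5 CPM over all cells: Hoxa9 stood at 0.684 and 2.54 CPM, Hoxa10 at 0.239 and 1.69, Hoxa13 at 0.284 and 4.51, Hoxc10 at 0.0923 and 3.76, and Hoxd11 at 0.0410 and 2.19. The 19 members not named by the rule lay between 0 and 4.17 CPM in the control and between 0.00583 and 3.22 CPM in the knockout. Hoxc11, Hoxc12 and Hoxd12 had no UMI in the control cells, which allows up to 0.0103 CPM (3 counts).

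The makeup of the libraries moved with these all-cell values. Without the cells of the Cdx/Pitx1 gate (48 control and 1052 knockout cells, alone or with other gates), 3 Hox genes were called higher and 3 lower. Without the cells of the cardiomyocyte gate (2044 control, 45 knockout), 4 were higher and 4 lower. Without both, none was higher and the 4 lower genes remained, with log2 ratios of -2.52 for Hoxb1, -2.38 for Hoxa2, -0.72 for Hoxb4 and -0.62 for Hoxb5. In that sum Hoxb6, Hoxb8 and Hoxb9 were between 0.29 and 0.42, and Hoxc8, Hoxc9 and Hoxd9 kept ratios of 1.57, 1.26 and 0.79 at levels under 5 CPM. These sums were chosen after the data were seen, and the share of all genes called in them was not computed. The calls of Hoxa2, Hoxb1, Hoxb4 and Hoxb5 thus held without both gates. None of the higher genes was called, but not all for the same reason. Hoxb6, Hoxb8 and Hoxb9 fell short of 1.5-fold, while Hoxc8, Hoxc9 and Hoxd9 were past 1.5-fold and under the minimum of 5 CPM. The part of the libraries' makeup in these differences was not tested.

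The Postn/collagen gate, cells that express matricellular and collagen genes, was the largest state present in both libraries. Of 10 Hox genes at 5 CPM there, 3 were lower in the knockout and none higher, where 4.13% and 11.8% of 10030 genes were. The lower genes were Hoxb1, Hoxb4 and Hoxb5. Hoxb1 stood at 92.7 CPM (89.7 to 95.8) in the control and 11.98 CPM (11.4 to 12.6) in the knockout, a log2 ratio of -2.85. Hoxb4 stood at 80.0 and 45.3 CPM and Hoxb5 at 74.0 and 39.1 CPM. All 10 measured genes had a ratio below 0 here, with a median of -0.43 against 0.03 over all genes, and the smallest were those of Hoxb8 (-0.16) and Hoxb9 (-0.07). Hoxb6, higher over all cells, stood at 127 CPM (control) and 94.2 CPM (knockout) within this gate. When cells that also passed another gate were kept in, 4 Hox genes were called higher and 3 lower, and the share of all genes was not computed. The marker sums of the gate were 2146 CPM (control) and 3077 CPM (knockout) for the mesenchymal list, and 478 and 152 CPM for the cardiomyocyte list. Their part in the Hox difference was not tested.

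In the Upk3b/Wt1 gate, uroplakin and Wt1 genes of the proepicardium and mesothelium, 3 of 10 measured Hox genes were lower and none higher, where 6.27% and 13.4% of 9998 genes were. The same 3 genes were called. Hoxb1 stood at 165 and 31.4 CPM in the control and knockout libraries, Hoxb4 at 104 and 67.5 CPM and Hoxb5 at 101 and 60.9 CPM. The genes 5′ of them were close, with Hoxb6 at 93.2 (86.6 to 100.1) and 94.4 CPM (86.5 to 102.9), and Hoxb8 at 50.2 and 57.4 CPM. Only 165 and 169 cells were in this gate, and the smaller calls depended on how they were chosen. Hoxb4 was at -0.14 with the gate cut doubled, which left 33 and 19 cells, at -0.58 with at least 30000 UMIs and at -0.56 when cells of several gates were kept, and Hoxb5 was at -0.54 with the cut halved.

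**Figure D2:**
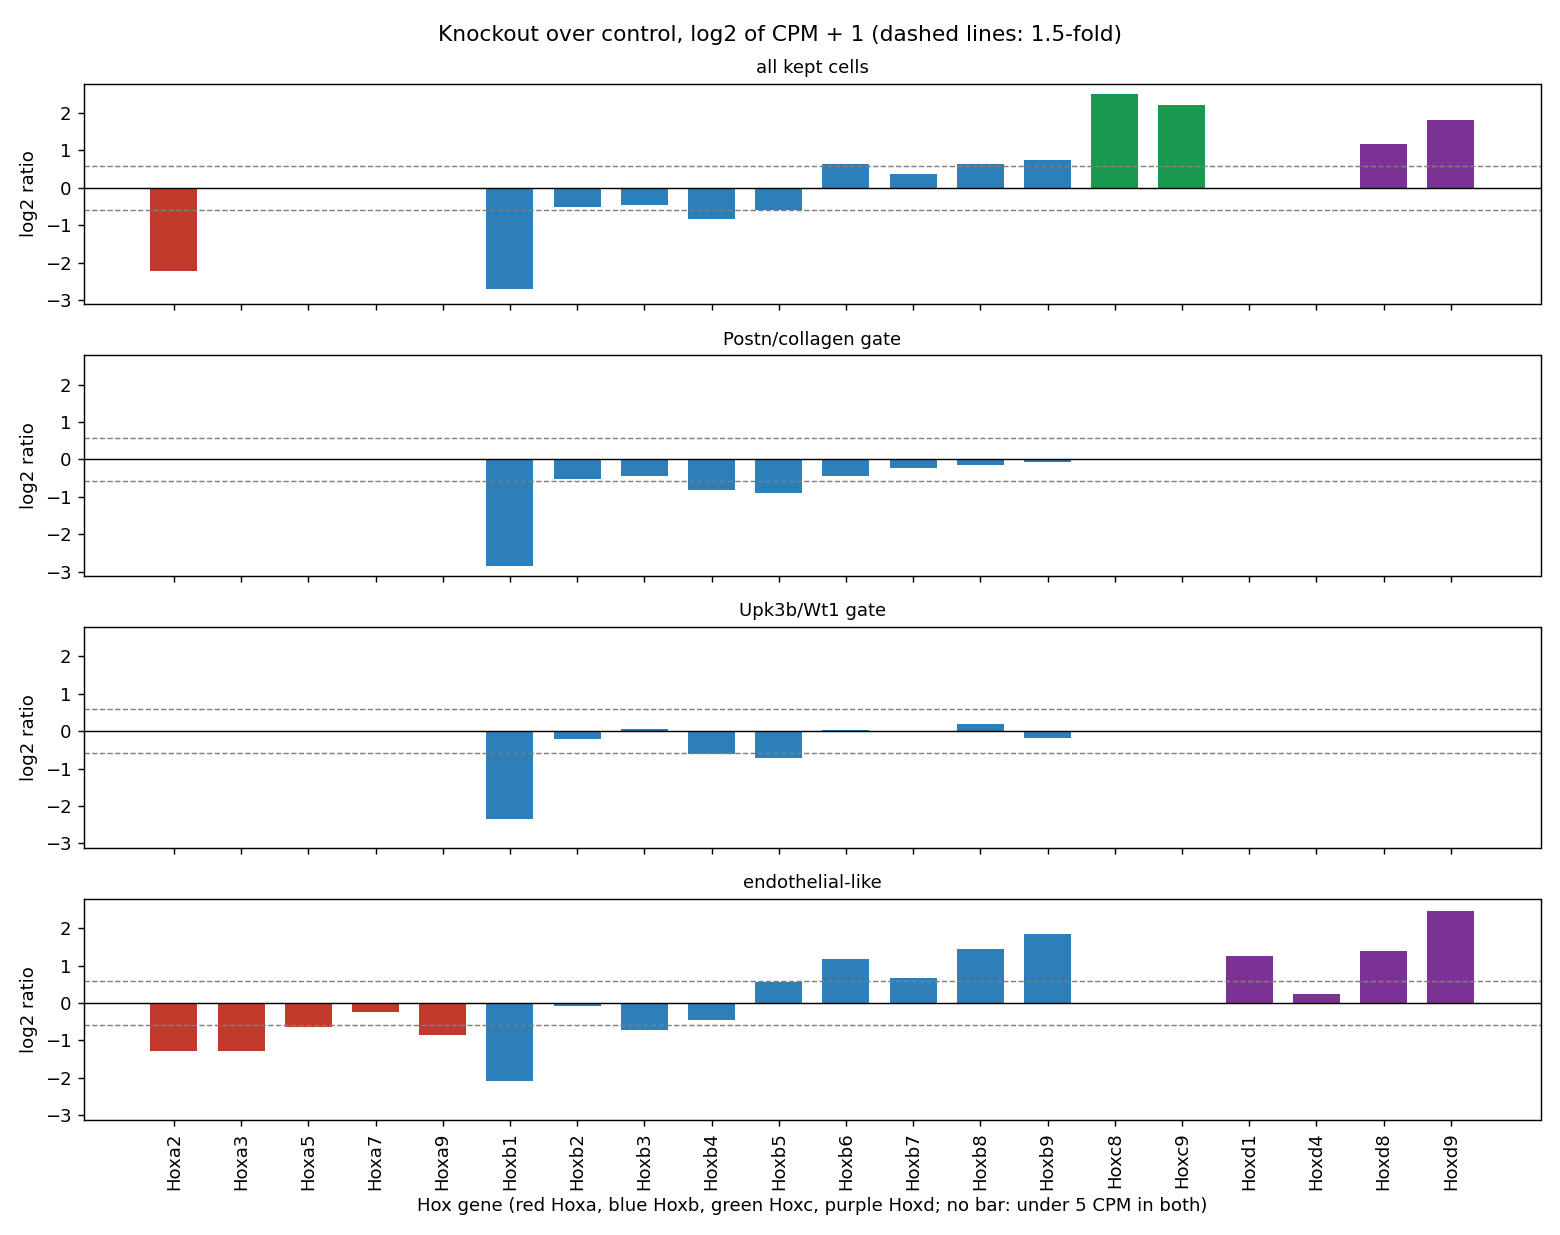
Log2 ratio of knockout over control, on CPM + 1, for the Hox genes shown that reached 5 CPM in either library, over all cells and within the 3 states with at least 100 cells in each library. Dashed lines mark 1.5-fold and colours mark the cluster. Hoxb1 lies below -2 in every panel, and of these panels the higher 5′ genes appear over all cells and in endothelial-like cells. Cells that passed no gate are not shown.

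Hoxb1 was also lower in knockout cells outside those gates. Among the 2375 control and 3417 knockout cells that passed no gate it stood at 188 and 43.7 CPM. Of 12 Hox genes measured in those cells 4 were lower and 1 higher, where 673 and 1191 of 10083 genes were. Of the lower ones 2 (Hoxa2 and Hoxa3) reached 5 CPM in 1 library only. The higher gene was Hoxb6, at 50.3 and 79.8 CPM, and Hoxb8 and Hoxb9 (0.53 each) fell short of 1.5-fold. In the cardiomyocyte-like state the Hoxb1 level was 213 CPM in control cells and 98.7 CPM (84.4 to 114.8) in the 38 knockout cells. The latter was the highest Hoxb1 level of any knockout state of more than 2 cells. The shortfall was in the share of cells as well as in the sum. With each cell thinned to 15000 UMIs, Hoxb1 was seen in 50.7% (47.3% to 54.1%) of the Postn/collagen gate cells of the control, 426 of 840, and in 9.05% (8.16% to 10.02%) of those of the knockout, 340 of 3755. Unthinned, the shares were 67.5% and 15.2%. In endoderm-like cells, where little Hox RNA is made, the thinned shares were 6.45% and 1.20%, at median depths of 49483 and 45858 UMIs, against 37900 and 28758 in the Postn/collagen gate. The knockout share in that gate was thus above the endoderm-like share of its own library. The tenth of Postn/collagen gate cells with the most Hoxb1 held 41.9% of its level in the control and 91.0% in the knockout, although a low mean alone raises such a share. For Hoxb2, which neighbours it, the same measure was 21.0% and 25.7%.

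The control library showed a step along the Hoxb cluster between heart muscle and matrix-rich cells. From the cardiomyocyte-like state to the Postn/collagen gate 4 of 11 measured Hox genes were higher and 2 lower, where 6.00% and 6.68% of 10148 genes were. Of these calls 1 higher (Hoxb9) and 1 lower (Hoxa2, at 9.03 and 3.98 CPM) were of genes that reached 5 CPM in 1 state only. For them the minimum itself favoured a call in that direction. Hoxb6 stood at 12.4 CPM (11.4 to 13.5) in cardiomyocyte-like cells and 127 CPM (124 to 131) in the gate, a log2 ratio of 3.26. Hoxb7 stood at 9.63 and 24.6 CPM, Hoxb8 at 15.5 and 57.3 CPM and Hoxb9 at 3.61 and 16.0 CPM. The genes 3′ of Hoxb6 did not show this step. Hoxb2, Hoxb3, Hoxb4 and Hoxb5 had ratios of 0.08, 0.04, -0.05 and 0.50, and Hoxb1 was lower in the gate (-1.19). The few cardiomyocyte-like cells of the knockout library had a low Hoxb6 too, 14.1 CPM (9.04 to 21.0) against 94.2 CPM in the Postn/collagen gate of that library. Cells of the Isl1/Sfrp5/Nkx2-5 gate, 255 in the control and 2 in the knockout, had Hoxb6 at 13.4 CPM and Hoxb1 at 160 CPM in the control, close to the cardiomyocyte-like levels.

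**Figure D3:**
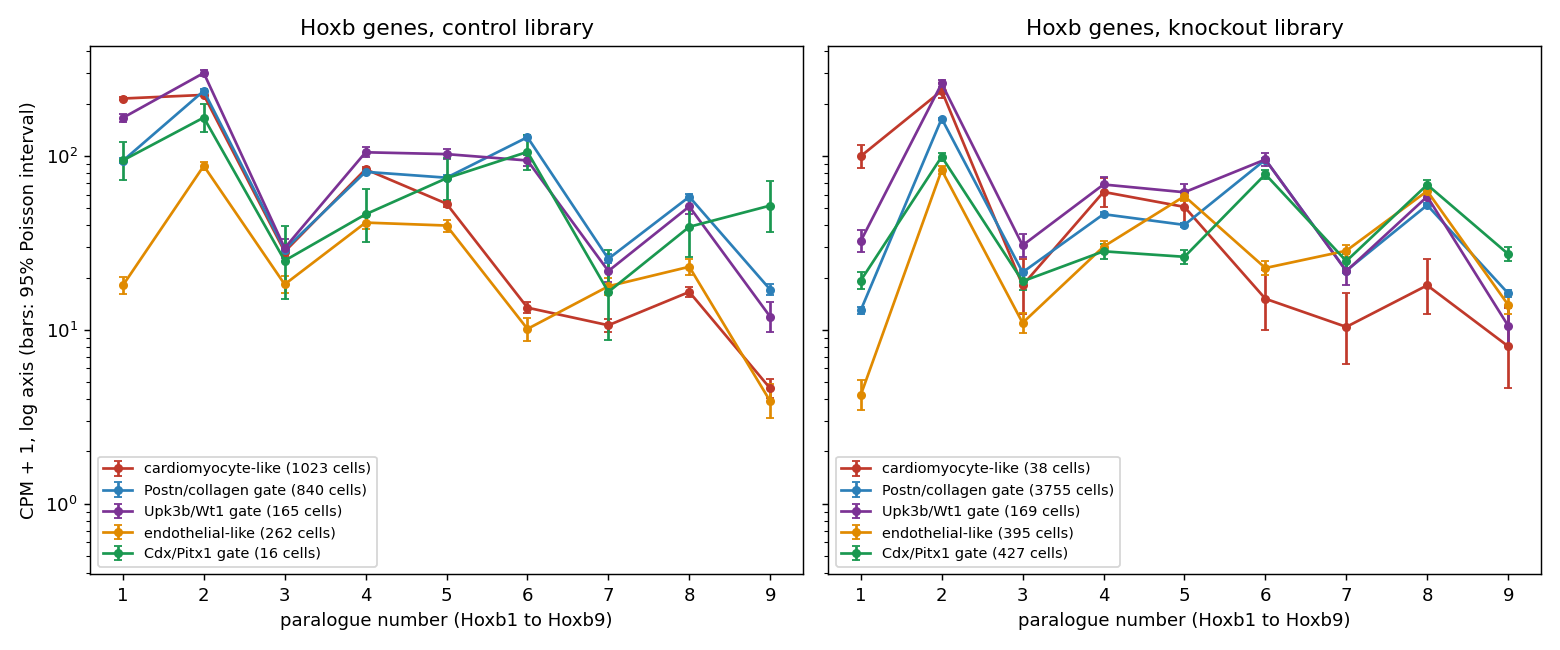
Level of Hoxb1 to Hoxb9 in 5 cell states, as CPM + 1 on a log axis with 95% Poisson intervals, for the control (left) and knockout (right) libraries; lines join the points of a state and levels of different genes are not comparable. Cardiomyocyte-like cells lie below the Postn/collagen and Upk3b/Wt1 gates from Hoxb6 on in both libraries, and Hoxb1 is lower on the right in each state.

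Endothelial-like cells numbered 262 in the control and 395 in the knockout. Of 19 measured members 7 were higher in the knockout and 7 lower, where 10.8% and 5.44% of 9708 genes were, and the median was -0.08 against 0.02 over all genes. Of these calls 3 higher (Hoxb9, Hoxd1 and Hoxd9) and 4 lower (Hoxa2, Hoxa3, Hoxa9 and Hoxb1) were of genes that reached 5 CPM in 1 library only, so no count by cluster is read from them. Within Hoxb, Hoxb1 and Hoxb3 were lower and Hoxb6, Hoxb7, Hoxb8 and Hoxb9 were higher.

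Hoxb8 stood at 22.1 CPM (19.8 to 24.6) in the control and 61.9 CPM (58.4 to 65.5) in the knockout, and Hoxb6 at 9.13 and 21.7 CPM. Hoxb9 stood at 2.89 CPM (2.10 to 3.88) and 12.9 CPM (11.4 to 14.6), and Hoxb7 at 16.8 and 27.5 CPM. Hoxb5 leaned upward here, at 38.8 and 57.7 CPM (0.56, short of 1.5-fold), where it was lower in the Postn/collagen and Upk3b/Wt1 gates. The difference between these ratios was not tested. In Hoxd, Hoxd9 stood at 0.985 CPM (0.551 to 1.62) and 9.92 CPM (8.57 to 11.4), and Hoxd8 at 5.98 and 17.4 CPM. The Hoxa genes named here lay the other way. Hoxa9, known for its part in endothelial and blood progenitors, stood at 9.72 CPM (8.22 to 11.4) in the control and 4.96 CPM (4.02 to 6.05) in the knockout. Hoxa5, Hoxa3 and Hoxd1 fall outside the rule for named genes and were chosen after their values were seen: Hoxa5 stood at 18.7 and 11.5 CPM, Hoxa3 at 9.13 and 3.12 CPM and Hoxd1 at 2.56 and 7.52 CPM. Hoxa9 thus lay on the opposite side from Hoxb9 and Hoxd9. Each of these genes reached 5 CPM in 1 library only, so the minimum favoured its direction and no pattern by cluster is read from them.

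Endothelial-like cells held almost no Hoxc RNA, with a sum of 0.263 CPM over the 9 Hoxc genes in control cells and 1.28 CPM in knockout cells. In the Postn/collagen gate the same sum was 5.81 and 13.9 CPM. Hoxb1 in endothelial-like cells of the control was at 17.0 CPM, the level of endoderm-like cells of that library. The tenth of cells with the most Hoxb1 held 77.9% of its level in the former and 88.6% in the latter, although a low mean alone raises such a share. The part of free RNA in these levels was not tested. Barcodes of 10 to 100 UMIs, which hold free RNA, had Hoxb1 at 186 CPM (control) and 32.7 CPM (knockout). With 5% of each sum taken off as free RNA, 8 Hox genes were higher and 7 lower in this state, and the share of all genes was not computed. None of the 7 lower genes, and 3 of the higher ones, were called when 20 CPM was required in either library.

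The Cdx/Pitx1 gate took cells by Cdx1, Cdx2, Cdx4 and Pitx1, genes known from the tail end of the embryo and, for Pitx1, from the hindlimb field. The gate was set with knowledge of earlier results on posterior Hox genes in these cells, so their presence in it is a description. It held 427 cells of the knockout library and 16 of the control, or 1052 and 48 when cells that passed other gates were counted. Of the markers of tail bud mesoderm, 3 were low in the knockout gate, with T at 2.32, Tbx6 at 0.199 and Wnt3a at 0.0663 CPM. Fgf8, a growth factor also made there, stood at 7.82 CPM against 3.24 CPM in the other knockout cells. The hindlimb factor Tbx4 stood at 3.78 CPM against 0.436 CPM in the other knockout cells. Wnt5a stood at 155 CPM against 71.7 CPM in the other knockout cells.

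Within the knockout library 20 of 29 measured Hox genes were higher in this gate than in the Postn/collagen gate and 3 were lower, where 3.72% and 4.83% of 10061 genes were. Of the 20 higher genes 19 reached 5 CPM in the Cdx/Pitx1 gate only, among them 11 of the 12 measured genes of paralogues 9 to 13, and the minimum favoured that direction for them. Their levels are therefore given as a description. In the Hoxc cluster Hoxc8 stood at 57.1 CPM in the gate against 4.53 CPM in the Postn/collagen gate, Hoxc9 at 49.2 against 3.19, and Hoxc10, a gene of lumbar levels, at 54.3 against 0.801. In the Hoxd cluster Hoxd8 stood at 25.8 CPM against 3.01, Hoxd9 at 49.7 against 2.35 and Hoxd11 at 33.7 against 0.132. In the Hoxa cluster Hoxa9 stood at 29.5 CPM against 0.163, Hoxa10 at 21.1 against 0.272 and Hoxa13, a gene of the hindgut, genital tubercle and digits, at 23.9 against 3.44.

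The 9 measured Hoxb genes reached 5 CPM in both gates. Among them only Hoxb9 was higher in the Cdx/Pitx1 gate, at 26.3 CPM against 15.2, and Hoxb2, Hoxb4 and Hoxb5 were lower. Summed by cluster, Hoxb made up 45.04% of the Hox UMIs of the gate and 92.6% of those of the Postn/collagen gate. Hoxb13, the most 5′ gene of that cluster, had no UMI in the 427 cells. The 16 control cells of the gate had several of the same genes, with wide intervals. Hoxa9 stood at 28.3 CPM (17.3 to 43.6), Hoxc8 at 39.6 CPM (26.3 to 57.2), Hoxd9 at 36.7 CPM (24.0 to 53.8), Hoxc10 at 19.8 CPM (10.8 to 33.2) and Hoxd11 at 12.7 CPM (5.81 to 24.1). Hoxa13 was at 1 UMI, or 1.41 CPM (0.0358 to 7.87), in these control cells, below the 23.9 CPM (21.5 to 26.5) of the knockout gate. The 48 control cells that passed the gate alone or with others held 12 of the 83 Hoxa13 UMIs of the control. That was 14.5% (7.70% to 23.9%), from 0.713% of all control UMIs.

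The gate, alone or with other gates, held 10.8% of all UMIs of the knockout cells and most UMIs of several 5′ genes. It held 93.9% (91.9% to 95.5%) of the Hoxd11 UMIs, 86.1% of Hoxc10, 83.8% of Hoxa10, 82.2% of Hoxa9, 64.1% of Hoxd9 and 61.9% of Hoxc8. For Hoxa13 the share was lower, 52.4% (49.9% to 54.9%), and for Hoxb1 it was 6.37%. Hoxa13 was accordingly seen outside the gate, at 3.44 CPM (3.13 to 3.77) in the Postn/collagen gate of the knockout against 0.388 CPM (0.217 to 0.639) in that of the control.

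Cells that passed this gate, alone or with others, were then split by which factor they expressed, a split chosen after the data were seen. In the knockout library 365 of them had at least 2 UMIs each of Cdx and Pitx1, 321 had at least 3 of Pitx1 and no Cdx, and 125 had at least 3 of Cdx and no Pitx1. Hoxc10 stood at 52.0 CPM with both factors, 36.5 CPM with Cdx alone and 2.97 CPM with Pitx1 alone. Hoxd11 stood at 36.6, 14.6 and 2.86 CPM in the same order, and Hoxa9 at 35.9, 13.1 and 3.18 CPM. These genes were thus lower in cells with Pitx1 and no Cdx than in cells with Cdx. They still lay above their levels in the Postn/collagen gate of that library, which were 0.801, 0.132 and 0.163 CPM. For Hoxa13 and Hoxd9 the groups with 1 factor alone were closer to each other. Hoxa13 stood at 31.5 CPM with both, 9.37 CPM with Cdx alone and 14.7 CPM with Pitx1 alone, and Hoxd9 at 55.9, 24.9 and 23.3 CPM. Absence of a UMI does not show that a factor is not expressed.

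**Figure D4:**
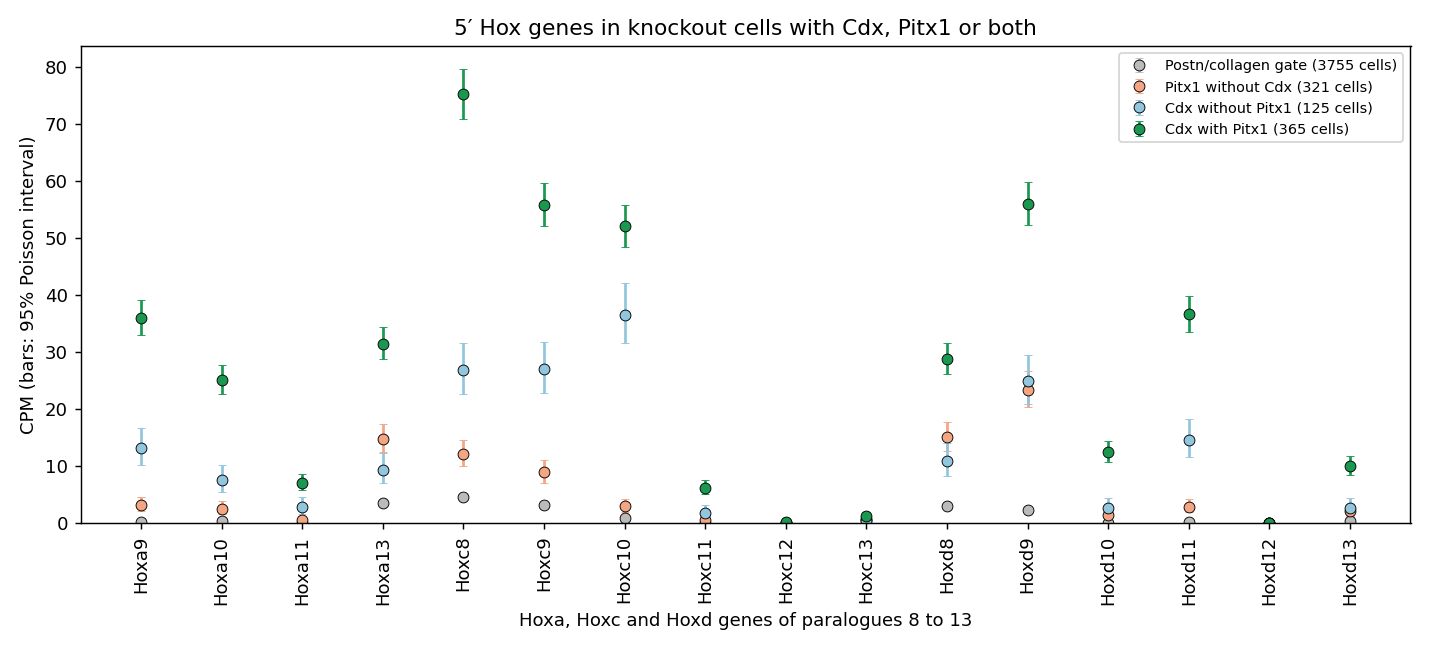
Level in CPM, with 95% Poisson intervals, of Hoxa, Hoxc and Hoxd genes of paralogues 8 to 13 in knockout cells of the Postn/collagen gate and in knockout cells that passed the Cdx/Pitx1 gate, alone or with others, split into Pitx1 alone, Cdx alone and both. Cells with both factors have the highest levels of most genes, and cells with Pitx1 alone lie below those with Cdx for Hoxa9, Hoxc10 and Hoxd11.

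Cells were also described by the highest paralogue number seen among their Hox UMIs, after thinning to 15000 UMIs. A UMI of paralogues 9 to 13 was seen in 12.1% (11.3% to 12.9%) of control cells, 768 of 6354, and in 29.3% (28.4% to 30.3%) of knockout cells, 2772 of 9449. Unthinned, the shares were 24.5% and 44.1%. Outside the Cdx/Pitx1 gate they were 11.8% and 24.7%, so the difference was smaller but present there. In endoderm-like cells 2.15% and 5.39% had such a UMI. Within states the shares were 22.7% (19.9% to 25.7%) and 27.9% (26.5% to 29.4%) in the Postn/collagen gate, 20.2% (15.5% to 25.6%) and 35.2% (30.5% to 40.1%) in endothelial-like cells, and 16.4% and 18.9% in the Upk3b/Wt1 gate. In the Postn/collagen gate paralogue 9 was the highest number seen in most of these cells. Paralogues 10 to 13 alone were the highest seen in 1.79% of the control and 7.43% of the knockout cells of that gate.

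Single cells of the Cdx/Pitx1 gate often held posterior genes of several clusters. In the knockout gate 18.3% of the 427 cells had UMIs of paralogues 9 to 13 from 2 clusters, 16.9% from 3 and 8.67% from all 4. In the Postn/collagen gate of that library the shares were 3.49%, 0.320% and 0.0533%. Endoderm-like and pluripotent-like cells lay at the other end. No Hox UMI was seen in 74.2% and 72.5% of endoderm-like cells of the control and knockout libraries, in 60.0% (20 cells) and 79.0% of pluripotent-like cells, and in 72.4% of 29 haematopoietic-like cells of the knockout library.

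**Figure D5:**
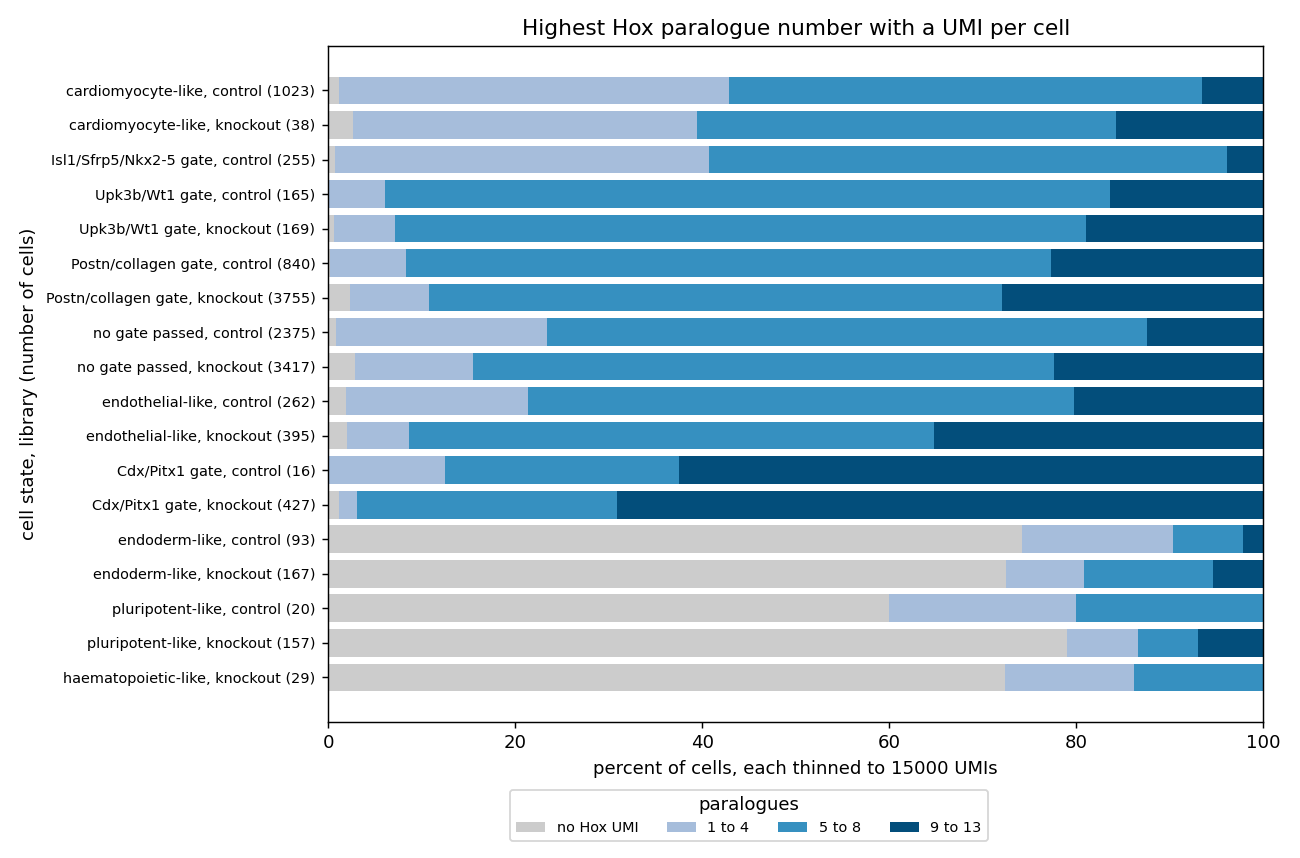
Percent of cells in each state and library by the highest Hox paralogue number with a UMI, each cell thinned to 15000 UMIs, with the number of cells in brackets. Paralogues 9 to 13 reach 62.5% and 69.1% in the Cdx/Pitx1 gate, and grey, no Hox UMI, takes most of the endoderm-like and pluripotent-like cells.

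Other genes of the pathway were taken from lists. Their counts over all cells stand beside the 12.7% of all genes called higher and the 6.75% called lower. Counts within a state stand beside the shares of all genes given above for that state. Of 9 measured TALE cofactors 2 were lower over all cells and none higher. Meis1 stood at 116 CPM (control) and 40.6 CPM (knockout), and Pbx3 at 187 and 83.4 CPM. Meis2 (144 and 133 CPM) and Pbx2 (114.5 and 85.2 CPM) did not pass 1.5-fold. Within the Postn/collagen gate only Meis1 of 9 was called, at 66.2 and 36.8 CPM, and in endothelial-like cells 3 of 8 were lower, with Meis2 at 90.4 and 32.4 CPM. In the Upk3b/Wt1 gate the calls were in the other direction, with 2 of 9 higher and none lower: Meis2 stood at 91.8 and 145.9 CPM, and Pknox2 at 6.26 and 13.4 CPM. Among cells that passed no gate 1 of 9 was higher and 2 were lower, where 1191 and 673 of 10083 genes were.

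Of 15 chromatin regulators of the clusters 2 were higher over all cells and none lower, a share of higher genes near that of all genes. Kmt2a, a trithorax methyltransferase that keeps Hox genes on, stood at 51.5 and 84.2 CPM, and Kat6a, an acetyltransferase with the same role, at 30.3 and 49.7 CPM. The Polycomb genes Ezh2 (218 and 193 CPM), Jarid2 (84.2 and 78.1 CPM) and Suz12 (71.9 and 96.3 CPM) did not pass 1.5-fold. Of 8 measured limb and body wall factors 2 were higher and 5 lower. Pitx1, a gate gene, stood at 2.51 and 24.7 CPM, while Tbx5, the forelimb and heart factor, stood at 31.0 and 5.98 CPM. Isl1, also a gate gene, stood at 40.3 and 9.49 CPM and Hand2 at 246 and 131 CPM. Within the Postn/collagen gate 2 of 8 were higher and 3 lower, and in the Upk3b/Wt1 gate 2 of 7 were higher and 2 lower. In endothelial-like cells 1 of 6 was higher and 4 lower, and among cells that passed no gate 2 of 8 were higher and 5 lower. The part of the libraries' makeup in the all-cell count was not tested. Of 3 measured genes of the posterior growth zone list 1 was higher over all cells and none lower, the gate gene Cdx2, at 1.84 and 14.9 CPM. Pitx1 and Cdx2 reached 5 CPM in the knockout library only, so the minimum favoured a higher call for them.

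Of the listed other RNAs and neighbouring genes of the Hox clusters 3 were measured, and all 3 were lower in the knockout library. Hotairm1, an antisense RNA of the Hoxa cluster, stood at 27.1 and 9.87 CPM, Hoxb3os at 50.4 and 20.8 CPM, and Snx11, a neighbour of the Hoxb cluster, at 5.57 and 3.27 CPM. Snx11 was just past 1.5-fold and reached 5 CPM in the control library only, so the minimum favoured its call. The sources used here do not say whether counting used the strand, so overlapping genes cannot be kept apart with certainty. In GENCODE M21, exons of Hoxb3os cover 52.9% of the exon bases of Hoxb3 and 27.3% of those of Hoxb2 on the opposite strand. On the same strand 9 members share exon bases with another gene. Among the named genes these are Hoxa2 (15.04% of its exon bases), Hoxa9 (1.52%), Hoxc10 (8.70%, with Hoxc5) and Hoxd11 (10.8%). Hoxb1, Hoxb4, Hoxb6, Hoxb8, Hoxb9, Hoxc8, Hoxc9 and Hoxd9 share none with any annotated gene.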

How the data were processed

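The deposited matrices held raw UMI counts per gene and barcode for 1 control and 1 knockout library, with a Cell Ranger header per the file headers. Per the submitters' processing notes, Cell Ranger, R 4.1.1 and the builds GRCm39 and mm39 were used. The sources used here do not say whether counting used the strand. Counts were summed over the kept cells of a state and scaled to CPM with Python 3.11.15, and ratios were of CPM plus 1. Gate cuts, in summed UMIs of the gate genes per 10000, were 10 for cardiomyocyte, 3 for Isl1/Sfrp5/Nkx2-5, 2 for Upk3b/Wt1, neural and paraxial, 1 for Cdx/Pitx1 and 5 for the other gates, set from the gate genes alone. No doublet caller was run, and cells passing several gates were left out of states. Shares of cells used counts thinned to 15000 UMIs per cell. A call was 1.5-fold or more at 5 CPM or more in either library, with no test. The call was checked on Poisson counts drawn from the pooled profile of both libraries with planted changes. These hold no variation between libraries or cells, so they check the calculation only. Members named were those at 5 CPM or more in either library over all cells, or at 20 CPM or more in a state of at least 100 cells of a library. Pathway genes beyond the 4 most abundant of a list were named after their values were seen. The members, lists and gates were chosen with earlier results of these data known, the Cdx/Pitx1 gate among them. Alternatives included TMM scaling with edgeR 4.0.16. Promoter windows came from RefSeq on GRCm38.p6 and exon overlaps from GENCODE M21 on GRCm38, and no coordinates were converted. The values of 1 member and 1 pathway gene are not reported here, although counts, sums and shares over the lists include them.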

Additional observations from a re-analysis of the deposited data

How the results depend on the processing

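No paired analysis was possible because control and knockout are 1 library each, and no replicate could be left out. No result changed direction, and the cause of the shifts below was not tested. The share of all genes called was not computed under these alternatives. Over all cells the 7 higher Hox genes became 16 with no minimum level and 2 at 20 CPM, where fewer genes were measured. Chosen after seeing the data, leaving out the Cdx/Pitx1 gate, the cardiomyocyte gate or both gave 3, 4 and 0. The log2 ratio of paralogues 1 to 4 was -0.91 at 5% mitochondrial UMIs, -0.97 with TMM, and -0.95, -0.96 and -0.93 without those gates. For paralogues 5 to 8 it was 0.25 at 30000 UMIs, 0.39 at 5% mitochondrial UMIs, 0.35 with TMM, 0.45 with equal weight per cell, and 0.29, 0.11 and 0.065 without the gates. For paralogues 9 to 13 it was 1.81, 1.94 and 1.960 at 30000 UMIs, 5% mitochondrial UMIs and equal weight, 1.95 with a prior of 0.25 CPM, and 1.07, 1.61 and 0.81 without the gates. Keeping cells of several gates gave 1 higher gene in the Upk3b/Wt1 gate and 4 in the Postn/collagen gate. In endothelial-like cells 20 CPM left 0 lower and 3 higher genes. The difference in the share of cells with paralogues 9 to 13, 17.2 percentage points, was 19.6 at 30000 UMIs and unthinned, and 8.63 when 2 UMIs were required. Over all cells Hoxb5 fell short of 1.5-fold at 5% mitochondrial UMIs (-0.53), with TMM (-0.58) and with equal weight (-0.56), and Hoxb6 and Hoxb8 at 30000 UMIs (0.48 and 0.53). Depth limits the small states: doubling the Upk3b/Wt1 cut left 33 and 19 cells, and Hoxb4 was then at -0.14.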
